A study of Homo sapiens with 6 samples.

Results

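The genes described here are 10 long noncoding RNA genes of 60663 gene rows with values in an RNA sequencing experiment. They are the paraspeckle RNA NEAT1, the speckle RNA MALAT1, and 8 snoRNA host genes: GAS5, SNHG1, SNHG5, SNHG6, SNHG8, SNHG12, SNHG15 and ZFAS1. They were chosen by name with the differences in counts between the 2 guides in these same libraries already known, so those differences are given as a description and not as a test. All 10 passed the filter on low counts, as did 32.7% of all rows. The cells were 5637, an established human bladder cancer line, grown as culture. Every library came from cells that, per the series description, carried dCas13b-FTO for 48 h. This is a catalytically dead RNA-guided Cas13b joined to FTO, a demethylase that erases the RNA mark N6-methyladenosine (m6A). The sample titles name dCas13b alone, and the count columns name FTO. In 3 libraries the fusion was paired with a control guide RNA (control guide), and in the other 3 with a guide RNA against HRAS (HRAS guide). No library without the fusion is among the 6, so effects of the fusion itself cannot be separated in these data. Whether replicates are separate cultures is not stated, and the spread between them may be technical only.

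NEAT1 is transcribed as a short and a long isoform, and the long one is the scaffold of paraspeckles, nuclear bodies that hold RNA-binding proteins such as NONO and SFPQ. MALAT1, its neighbour on the chromosome, collects in nuclear speckles, which store splicing factors, and is a well known carrier of m6A. SnoRNA host genes carry small nucleolar RNAs in their introns. These guide chemical modification of ribosomal and other RNAs, while the spliced host RNA is exported and, for several hosts, removed by nonsense-mediated decay. Many hosts begin with a 5′ terminal oligopyrimidine (TOP) tract, as mRNAs of the translation machinery do.

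The start regions are shown because they carry a feature that the choice of genes did not use. RefSeq promoter sequences (GRCh38.p14) were at hand for 7 of the 10 genes. Each window runs from 40 bases before the annotated first base to 30 bases from it onward, 5′ to 3′ on the transcribed strand. Capitals mark CTTT beginning within 5 bases of the first base, and TATAA beginning 40 to 20 bases before it.
SNHG12: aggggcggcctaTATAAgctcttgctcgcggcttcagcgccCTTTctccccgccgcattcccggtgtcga
SNHG8: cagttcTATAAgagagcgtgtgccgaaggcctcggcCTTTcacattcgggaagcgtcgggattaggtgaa
SNHG5: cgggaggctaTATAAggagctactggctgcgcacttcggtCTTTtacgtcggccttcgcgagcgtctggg
ZFAS1: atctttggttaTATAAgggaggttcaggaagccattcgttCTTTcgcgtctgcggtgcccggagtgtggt
SNHG1: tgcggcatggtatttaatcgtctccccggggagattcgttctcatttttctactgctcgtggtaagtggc
MALAT1: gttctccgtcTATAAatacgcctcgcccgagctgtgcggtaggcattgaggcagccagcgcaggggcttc
These windows lie on GRCh38.p14 at chr1:28581844-28581913 (minus strand) for SNHG12, chr4:118278722-118278791 (plus) for SNHG8, chr6:85678704-85678773 (minus) for SNHG5, chr20:49278602-49278671 (plus) for ZFAS1, chr11:62855856-62855925 (minus) for SNHG1 and chr11:65499005-65499074 (plus) for MALAT1.

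SNHG12, SNHG8, SNHG5 and ZFAS1 share both motifs: TATAA begins 28 to 34 bases before the start, and CTTT begins within 5 bases of it. CTTT is 1 form that the opening of a TOP tract can take, and other pyrimidine runs were not counted. The shares of CTTT given here are therefore not shares of TOP genes. CTTT begins at the first base in SNHG5 and ZFAS1 and 1 base after it in SNHG12. In SNHG8 CTTT begins 4 bases before the RefSeq first base (118278762). It lies within the span of the GENCODE gene, which begins at 118278709. The GENCODE spans of SNHG12, SNHG5 and ZFAS1 also begin upstream of these RefSeq starts, so the motif places hold for the RefSeq starts only. For either motif these 4 genes are 66.7% of the 6 snoRNA hosts with a sequence. Over all 27305 genes of the same table, 7.94% hold CTTT in that place and 4.94% hold TATAA. On the other strand the shares over all genes were 4.92% for AAAG and 2.18% for TTATA, and among the 6 hosts they were 0 and 1. SNHG1 holds neither motif, and MALAT1 holds TATAA before one of its 2 RefSeq starts. The RefSeq start of GAS5, at position 173869045 of chromosome 1, lies upstream of the whole GENCODE gene, and its window holds neither motif. For comparison, CTTT begins within 5 bases of the start in 12 of 13 protein-coding TOP genes with a sequence and in 4 of 21 other noncoding snoRNA hosts. A match is a description of letters, and the motifs were chosen after the sequences had been seen.

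Library totals ran from 24968702 to 32283370 counts, and the 10 genes together took 0.264% to 0.325% of a library. All 6 basal and squamous markers (KRT5, KRT6A, KRT17, TP63, CD44, KRT14) and all 6 general epithelial markers were above 1 CPM (counts scaled by library size) in every library. Of 7 luminal urothelial markers 4 were, while UPK1A, UPK3A and KRT20 never reached it. Of 6 leukocyte markers 1 was above it in every library, CD14 at 2.59 to 4.78 CPM, while PTPRC, CD3E, CD68 and LYZ never reached it. Of 5 endothelial markers VWF was, at 2.74 to 4.02 CPM, and PECAM1, CDH5 and KDR never reached it. Of 6 fibroblast and muscle markers COL1A1 (139 to 210 CPM) and ACTA2 (2.42 to 3.44 CPM) were, and DES and DCN never reached it. Summed basal markers spanned 5184 to 6514 CPM with the control guide and 5148 to 5783 CPM with the HRAS guide. For HRAS itself, the target of the guide, the means were 181 ± 43.6 (control guide) and 183 ± 16.5 CPM (HRAS guide; SD, n = 3). The libraries differed along GC content: Spearman's rho across genes between GC content and a library's deviation from the mean of all 6 was -0.457, 0.607 and -0.206 in control replicates 1 to 3, and 0.267, -0.489 and 0.0582 in HRAS guide replicates 1 to 3. Genes are not independent replicates, and rho describes the libraries only.

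CPM values here use library sizes adjusted by TMM, a scaling that sets most genes even between libraries. In bulk RNA, fewer cells holding a transcript and less of it per cell cannot be told apart. Per kb of exon sequence MALAT1 was the most abundant of the 10 RNAs, and SNHG5 the least. MALAT1 stood at 171 ± 12.4 CPM per kb with the control guide (SD, n = 3), and NEAT1 at 38.5 ± 1.06 over the 22767 exon bases of its long form. GAS5 followed at 34.1 ± 0.736 CPM per kb and SNHG6 at 31.0 ± 5.02, which overlap by their SDs. SNHG1 (22.7 ± 0.868) and ZFAS1 (20.2 ± 1.96) overlap too, as do SNHG15 (12.4 ± 1.49) and SNHG8 (11.9 ± 1.94). SNHG12 stood at 5.74 ± 0.431 CPM per kb and SNHG5 at 1.41 ± 0.242. Per length, MALAT1 ranked 132 and NEAT1 902 among 19502 genes, and SNHG5 12491. Gene counts do not separate the NEAT1 isoforms, so the value over the long form is lower than a value over the short form would be. Levels compared between RNAs can also depend on how the library was made, which is not given in the sources used here.

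**Figure D1:**
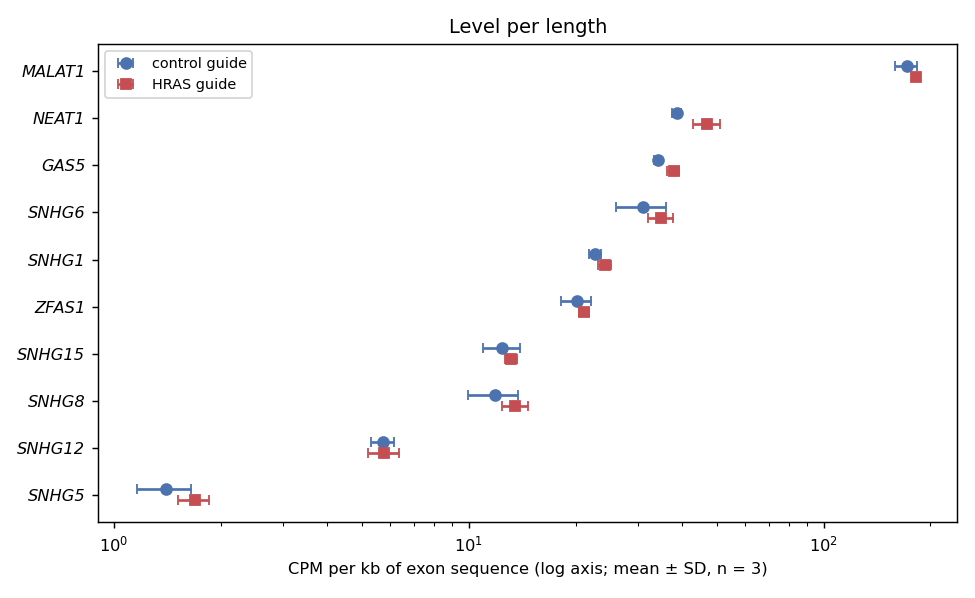
Level of each RNA per kb of exon sequence (log axis, CPM per kb) with the control guide (circles) and the HRAS guide (squares); bars are SD over 3 libraries. MALAT1 stood at 171 and SNHG5 at 1.41 CPM per kb with the control guide, and only SNHG15 and SNHG8 change places with the HRAS guide, at 13.2 and 13.5.

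The architectural RNA NEAT1 (ENSG00000245532, GRCh38 chromosome 11, 65422774 to 65445540, plus strand) had the largest log2 fold change of the 10 in the edgeR fit of all 6 libraries by guide alone. Its control guide libraries, replicates 1 to 3, gave 880, 899 and 851 CPM, and its HRAS guide libraries gave 1007, 1024 and 1175 CPM in the same order. All 3 HRAS guide libraries lay above all 3 control libraries, and HRAS guide replicate 3 was the highest. The means were 877 ± 24.2 and 1069 ± 92.5 CPM (SD, n = 3), a log2 fold change (HRAS guide minus control guide) of 0.29 ± 0.08 (SE) with a 95% interval of 0.11 to 0.46. This is a ratio of 1.22. Of all 19836 genes tested, 9.01% had a log2 fold change as high or higher, as did 0.696% of those with a mean of at least 5 CPM, a level chosen after seeing the data. Without HRAS guide replicate 3 it was 0.21, and it lay between 0.26 and 0.33 without any other library. SNHG5 was higher than NEAT1 in 5 of the 17 fits, for example at 0.36 against 0.28 without control replicate 1. Without control replicate 2, SNHG8 (0.316) and SNHG6 (0.310) were higher than NEAT1 (0.305). Without HRAS guide replicate 3, SNHG8 was higher too, at 0.24 against 0.21.

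The speckle RNA MALAT1 (ENSG00000251562, chromosome 11, 65497688 to 65506516, plus strand) overlapped between the guides. Its control guide libraries gave 1636, 1469 and 1431 CPM, and its HRAS guide libraries gave 1613, 1583 and 1631 CPM. Control replicate 1 was the highest of the 6, and control replicate 3 the lowest. The log2 fold change came to 0.09 ± 0.07 (SE; 95% interval -0.07 to 0.25). It moved to 0.15 without control replicate 1 and to 0.04 without control replicate 3. An annotated lncRNA on the opposite strand shares 4.49% of the MALAT1 exon bases.

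GAS5, SNHG1, SNHG5 and the other snoRNA hosts all had positive log2 fold changes, with 95% intervals that include 0. GAS5, a growth-arrest-associated host (ENSG00000234741, chromosome 1, 173863900 to 173868882, minus strand), gave 121, 126 and 125 CPM in its control guide libraries against 141, 131 and 140 CPM in its HRAS guide libraries. Its groups did not overlap. The log2 fold change came to 0.15 ± 0.08 (SE; 95% interval -0.03 to 0.32).

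SNHG1, which hosts a cluster of box C/D snoRNAs (chromosome 11, 62851988 to 62855914, minus strand), stood at 87.8, 81.6 and 86.4 CPM with the control guide and at 88.7, 95.4 and 88.4 CPM with the HRAS guide. The groups did not overlap here either, but the nearest libraries were only 87.8 and 88.4 CPM. The log2 fold change was 0.09 ± 0.08, with an interval of -0.10 to 0.28, and was 0.06 without HRAS guide replicate 2.

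The remaining 6 hosts overlapped between the groups. SNHG5, host of SNORD50 (chromosome 6, 85660950 to 85678748), rested on 88 to 154 counts a library and had a log2 fold change of 0.26 ± 0.17. It stood at 4.49, 3.18 and 4.16 CPM under the control guide, against 5.22, 4.26 and 4.73 CPM under the HRAS guide. Control replicate 2 was the lowest library, and without it the value was 0.13.

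SNHG8, host of SNORA24 (chromosome 4, 118278709 to 118279823), stood at 9.30, 12.8 and 10.7 CPM with the control guide and at 13.6, 12.3 and 11.5 CPM with the HRAS guide. Its log2 fold change was 0.19 ± 0.14. SNHG6, host of SNORD87 (chromosome 8, 66921684 to 66926398), stood at 34.9, 45.9 and 35.1 CPM and at 47.1, 39.96 and 43.3 CPM, with 0.17 ± 0.13. In both genes control replicate 2 stood above the other control libraries, and without it the values were 0.32 for SNHG8 and 0.31 for SNHG6. Without control replicate 1 they were 0.08 and 0.10, and without HRAS guide replicate 1 they were 0.12 and 0.11. SNHG6 was also 0.10 without control replicate 3.

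SNHG15, host of SNORA9 (chromosome 7, 44983023 to 44986961), stood at 39.8, 50.7 and 45.5 CPM with the control guide and at 49.9, 46.1 and 48.0 CPM with the HRAS guide, a log2 fold change of 0.08 ± 0.11. ZFAS1, host of the SNORD12 family (chromosome 20, 49278178 to 49295738), stood at 43.3, 50.3 and 42.3 CPM and at 48.7, 45.6 and 47.8 CPM, with 0.06 ± 0.10. SNHG12, host of SNORD99 and several box H/ACA snoRNAs (chromosome 1, 28578538 to 28583132), stood at 25.1, 25.9 and 22.4 CPM and at 25.2, 22.0 and 26.8 CPM, with 0.01 ± 0.11. In SNHG15 and ZFAS1 the highest library was control replicate 2. The sign of SNHG12 turned to -0.06 without control replicate 3, to -0.05 without HRAS guide replicate 3, to -0.0032 without HRAS guide replicate 1 and to -0.05 with the GC library set, described further on, as a covariate. SNHG15 turned to -0.01 without control replicate 1, and stood at 0.17 without control replicate 2 and at 0.05 without HRAS guide replicate 1. ZFAS1 stood at 0.15 without control replicate 2, at 0.03 without control replicate 1 and at 0.0075 without control replicate 3.

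**Figure D2:**
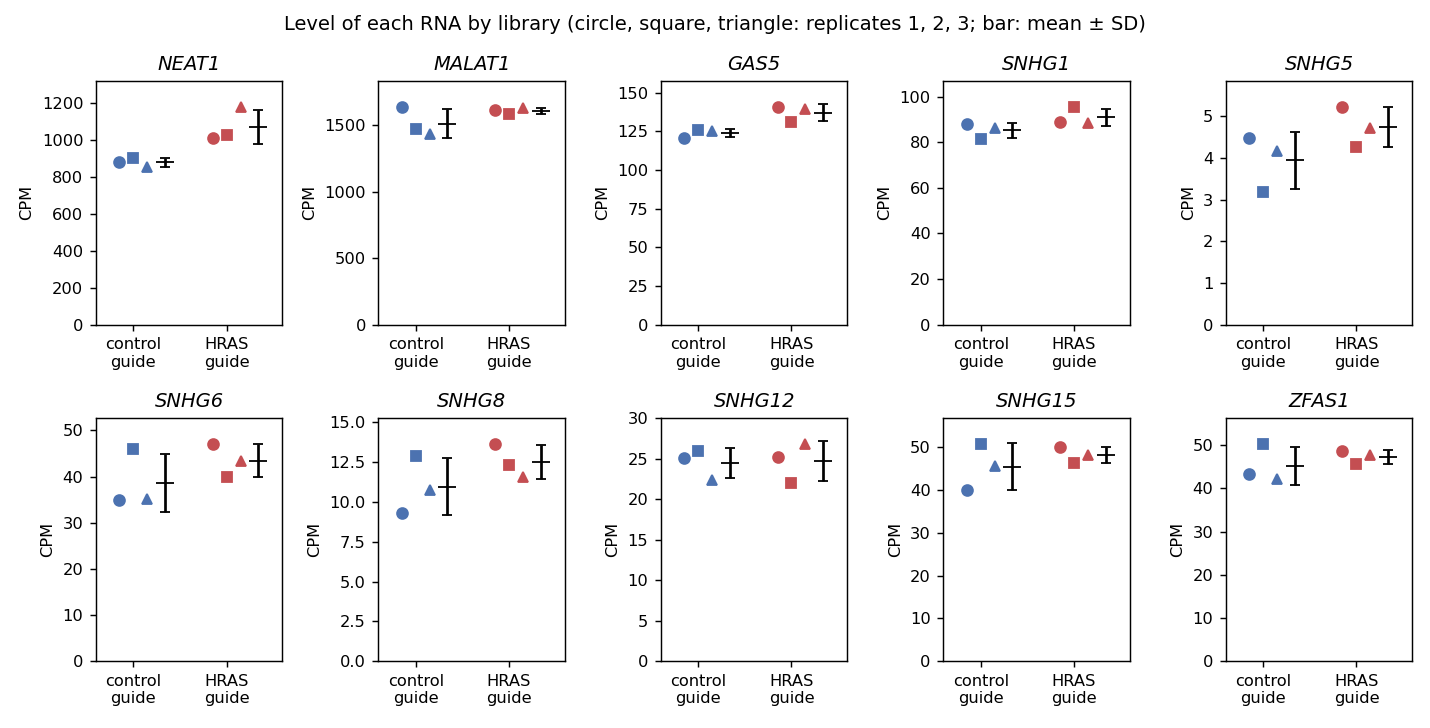
CPM of each of the 10 RNAs in every library, by guide, with a linear axis from 0 in each panel; circles, squares and triangles are replicates 1, 2 and 3, and the bar is the mean ± SD of 3 libraries. The groups stand apart for NEAT1, GAS5 and SNHG1 and overlap for the other 7.

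By edgeR's quasi-likelihood test over 19836 genes, at an adjusted p of 0.05, 0 of the 10 genes passed, where 0.0101% of all genes did. At an unadjusted p of 0.05 there was 1 member, NEAT1, where 663 of the 19836 genes were, and 0 of the 10 passed in DESeq2 (0.141% of all genes) or limma-voom (0.00504%), nor with the GC library set as a covariate in edgeR (0.408%). The groups were apart with the HRAS guide higher for 3 of the 10, against 4.81% of all genes, and apart with it lower for 0, against 4% of all genes. Since this contrast was known when the genes were chosen, nothing is read from these counts. The median log2 fold change of the 8 hosts was 0.12, with 8 of 8 positive, beside -0.0014 and 9815 of 19836 over all genes tested. Leaving out control replicate 1 gave a host median of 0.09 and leaving out control replicate 2 one of 0.15.

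**Figure D3:**
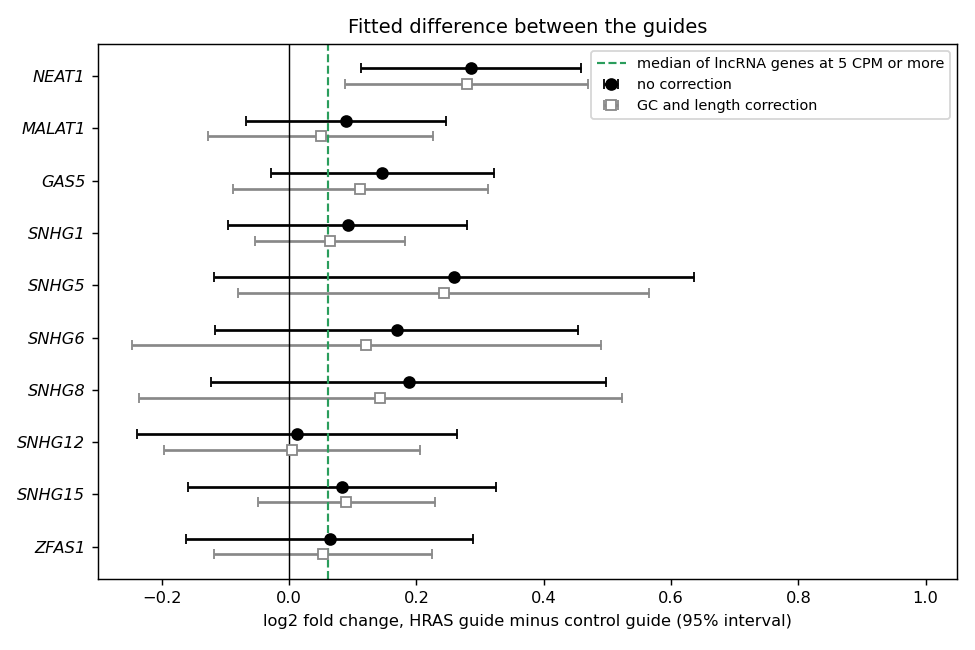
Log2 fold change (HRAS guide minus control guide) with 95% interval for each RNA, without correction (filled circles) and with the GC and length correction (open squares); the dashed line is the median of lncRNA genes with a mean of at least 5 CPM. The interval lies above 0 for NEAT1 alone, at 0.11 to 0.46 without the correction and 0.09 to 0.47 with it.

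The 10 genes differ in GC content, along which the libraries differed. Median GC content over transcripts ran from 39.3% for MALAT1 to 54.4% for SNHG15, with 50.1% as the median of all genes tested. Libraries fall into a set of negative GC trend (control replicates 1 and 3, HRAS guide replicate 2) and one of positive trend (control replicate 2, HRAS guide replicates 1 and 3). Within the negative and the positive set the difference between the guides was 0.24 and 0.27 for NEAT1, 0.05 and 0.14 for MALAT1, and 0.09 and 0.16 for GAS5, on the log2 scale. SNHG1 stood at 0.13 and 0.12. For SNHG8 the values were 0.30 and -0.04 and for SNHG6 0.19 and -0.02, so the difference had no single sign across sets. SNHG15 (0.12 and -0.05), ZFAS1 (0.09 and -0.06), SNHG12 (-0.11 and 0.0039) and SNHG5 (-0.02 and 0.64) were also of mixed sign. Each of these sets holds 1 library of one guide and 2 of the other, so these are values with no test.

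A correction for GC content and length, each taken as the median over a gene's transcripts, left NEAT1 at 0.28 ± 0.09 and GAS5 at 0.11 ± 0.09. It widened the spread of the control libraries for both, from 24.2 to 105 CPM for NEAT1 and from 2.67 to 16.7 CPM for GAS5 (SD, n = 3). It widened that spread for MALAT1 (109 to 184 CPM), SNHG6 (6.26 to 11.6), SNHG8 (1.79 to 3.22) and, by less, SNHG1, SNHG12 and ZFAS1 too. The SE of the log2 fold change rose for NEAT1, GAS5, MALAT1, SNHG6 and SNHG8. It fell for SNHG1 (0.08 to 0.05), SNHG12 (0.11 to 0.09) and ZFAS1 (0.10 to 0.08) despite the wider control spread. The corrected NEAT1 levels were 810, 1001 and 830 CPM (control guide) and 1044, 977 and 1183 CPM (HRAS guide), so the groups overlapped. After the correction the groups were apart for 0 of the 10 genes, against 5.98% of genes higher and 6.29% lower, and 0 of the 10 passed in edgeR (0.2% of all genes). The SD of the control libraries became smaller for SNHG15 (5.42 to 3.00 CPM) and SNHG5 (0.680 to 0.336 CPM). The median transcript of MALAT1 has 480 bases and that of NEAT1 3147, against 8708 and 22743 for their longest. With the longest transcript in place of the median, an alternative chosen after seeing the data, NEAT1 was 0.26 ± 0.10 and MALAT1 0.07 ± 0.09.

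Positive values were common among lncRNA genes at large. Of 459 lncRNA genes with a mean of at least 5 CPM, a level chosen after seeing the data, 69.9% had a positive log2 fold change, with a median of 0.06. Of 11134 protein-coding genes at that level 45.4% were positive, with a median of -0.0086. The medians by library of these lncRNA genes, as log2 deviation from the mean of all libraries, were -0.05, 0.02 and -0.05 in control replicates 1 to 3 and 0.06, 0.02 and 0.04 in HRAS guide replicates 1 to 3. Control replicate 2 thus stood within the range of the HRAS guide libraries. The groups were apart with the HRAS guide higher for 12.4% of these lncRNA genes and for 2.71% of the protein-coding ones. Outside the lists named here, 427 lncRNA genes remained, of which 291 were positive, with a median of 0.05.

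The lncRNA median was positive in all 17 fits, from 0.04 without control replicate 3 to 0.08 without control replicate 2. It was 0.05 with the library set as a covariate, where 62.3% were positive, and 0.06 after the GC and length correction. With library totals alone the share of protein-coding genes with a positive value was 57.6% and that of lncRNA genes 73.2%. Of all 3401 lncRNA genes tested, 0 passed in edgeR by guide alone, and with the library set as a covariate 1 of the 459 was called, lower. Beside the lncRNA median the host median of 0.12 is higher, and ZFAS1 stood at 0.06 with all 6 libraries. MALAT1, SNHG1 and SNHG15, at 0.08 to 0.09, lie little above it. In the fit by guide alone, only NEAT1 among the 10 genes had an interval (0.11 to 0.46) wholly above that median. The differences were known when the genes were chosen, so this is a description and no test.

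**Figure D4:**
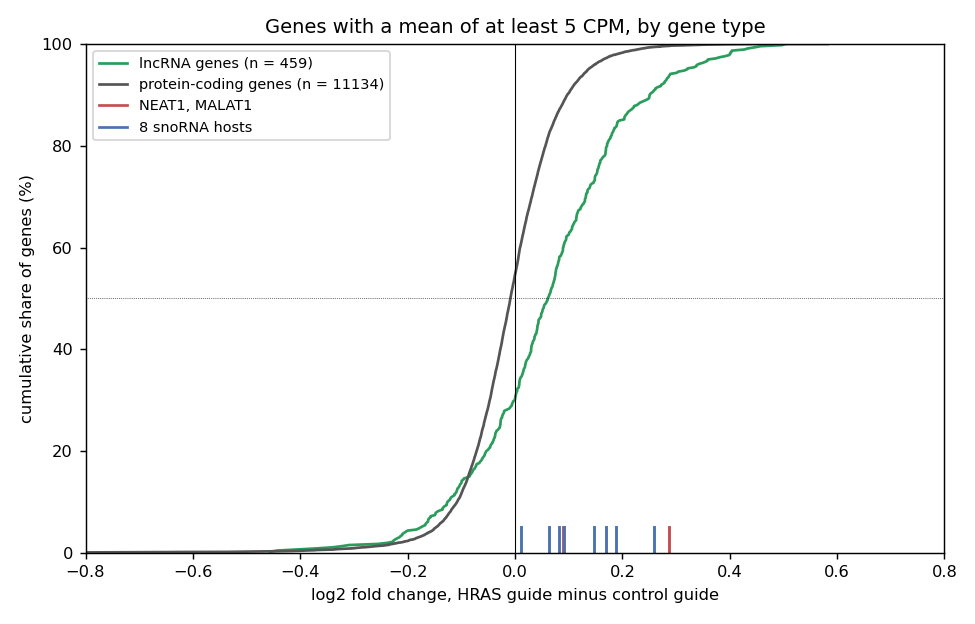
Cumulative share of genes (%) by log2 fold change (HRAS guide minus control guide) for 459 lncRNA and 11134 protein-coding genes with a mean of at least 5 CPM; ticks at the bottom mark NEAT1 and MALAT1 (red) and the 8 snoRNA hosts (blue). At the median the lncRNA curve lies to the right, at 0.06 against -0.0086.

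Other noncoding snoRNA hosts also stood mostly above 0. Of 23 such genes listed, 22 were matched and 21 tested: 19 lay above 0 and 2 below, the median was 0.17, and 0 passed in edgeR (3 at an unadjusted p of 0.05, beside 663 of 19836 genes). The most abundant were SNHG29 (117 ± 10.6 and 119 ± 1.62 CPM, log2 fold change 0.03 ± 0.09) and SNHG17 (91.3 ± 9.99 and 86.1 ± 3.00 CPM, -0.08 ± 0.10), with SDs over 3 libraries. SNHG3 (0.09 ± 0.11) and SNHG7 (0.17 ± 0.16) followed. The groups were apart, with the HRAS guide higher, for 5 of the 21: SNHG16, EPB41L4A-AS1, SNHG4, SNHG10 and SNHG21, named after their values were seen. That share was 4.81% over all genes tested and 12.4% over lncRNA genes with a mean of at least 5 CPM. SNHG4 stood at 6.08, 5.17 and 6.57 CPM with the control guide and at 7.79, 7.91 and 7.83 CPM with the HRAS guide, a log2 fold change of 0.40 ± 0.13. SNHG10 stood at 3.21, 3.91 and 3.40 CPM and at 5.30, 4.23 and 5.40 CPM, with 0.51 ± 0.16. The larger values belonged to genes of low level, whose intervals are wide. The median of the list was 0.14 after the GC and length correction, 0.12 over the 19 genes above 1 CPM in 3 libraries and 0.27 without control replicate 2.

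Of 14 other nuclear or chromatin-bound lncRNAs, 10 were tested, 10 were positive and 0 passed in edgeR (2 at an unadjusted p of 0.05, beside the same 663), with a median of 0.12. The most abundant of them, OIP5-AS1 (0.05 ± 0.12) and TUG1 (0.0023 ± 0.13), were close to 0. The groups were apart, with the HRAS guide higher, for MIR17HG (18.0 ± 1.54 and 22.4 ± 0.806 CPM) and JPX (7.06 ± 0.670 and 9.02 ± 0.828 CPM), both named after their values were seen. Over all genes tested 4.81% were apart in this direction, and over lncRNA genes with a mean of at least 5 CPM 12.4%. MIR17HG is the precursor of a microRNA cluster. Without HRAS guide replicate 2 the share of positive members was 60%, and over genes above 1 CPM in 3 libraries the median was 0.08.

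**Figure D5:**
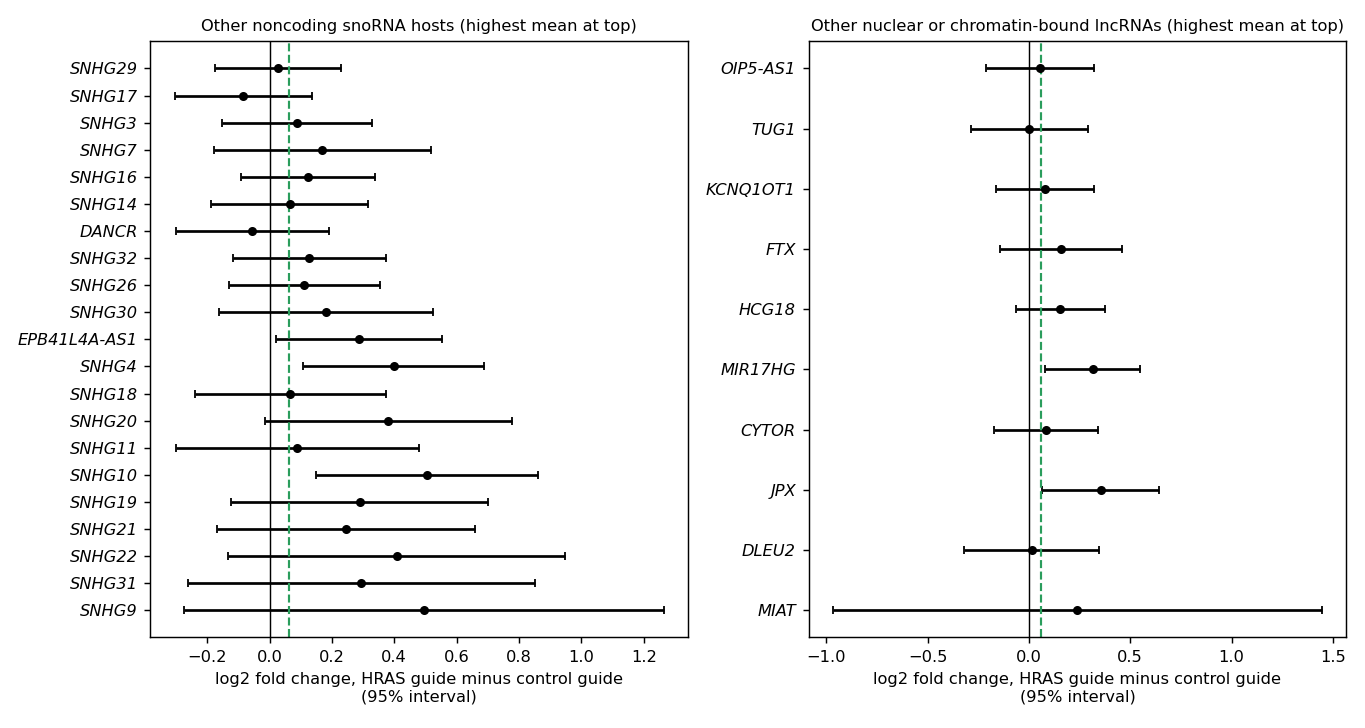
Log2 fold change (HRAS guide minus control guide) with 95% interval for 21 other noncoding snoRNA hosts (left) and 10 other nuclear or chromatin-bound lncRNAs (right), ordered by mean CPM; the dashed line is the median of lncRNA genes with a mean of at least 5 CPM. The list medians are 0.17 and 0.12, and SNHG10, at 0.51, is the highest on the left.

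The genes for proteins that work with these RNAs had list medians near 0. These are RNA counts, and protein was not measured. Of 19 genes for paraspeckle proteins 7 lay above 0 and 12 below, the median was -0.0085, and 0 were called in edgeR. HNRNPK, which encodes an RNA-binding protein needed for NEAT1 processing, stood at 0.01 ± 0.08. NONO, which encodes a core paraspeckle protein, stood at -0.03 ± 0.07. Of 20 genes for nuclear speckle proteins 9 were positive, with a median of -0.0089 and 0 calls. The speckle scaffold gene SRRM2 stood at -0.11 ± 0.07 and the splicing factor gene SRSF3 at -0.02 ± 0.07. With library totals alone these medians were both 0.01, and in the fit holding the library set as a covariate 0.03 and 0.05, so neither list has a direction across fits. At an unadjusted p of 0.05 there were 0 genes on either list. Among the 19 paraspeckle genes the groups were apart with the HRAS guide higher for 0 and lower for 2. Among the 20 speckle genes they were apart with it higher for 1 and lower for 2, SRRM2 among the latter. Over all genes tested the shares were 4.81% higher and 4% lower.

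Of 14 genes for snoRNP proteins, which bind the snoRNAs, 11 were positive with a median of 0.02. NOP56 (0.09 ± 0.10) and FBL, which encodes the methyltransferase of box C/D snoRNPs (0.0025 ± 0.12), were the most abundant. Without control replicate 1 the median turned to -0.01. Of 14 genes for nonsense-mediated decay factors 6 were positive with a median of -0.0056. SMG5 stood at -0.0086 ± 0.08 and the helicase gene UPF1 at -0.03 ± 0.08. With library totals alone that median was 0.02. Of 17 tested protein-coding TOP genes 12 were positive with a median of 0.03, led in level by the elongation factor genes EEF1A1 (0.03 ± 0.06) and EEF2 (-0.06 ± 0.07). In each of these lists 0 genes passed in edgeR and 0 had an unadjusted p under 0.05. With the HRAS guide higher, groups were apart for 2 of 14 snoRNP, 1 of 14 decay and 2 of 17 TOP genes. With it lower they were apart for 0 of each list. Over all genes tested these shares were 4.81% and 4%. Of the TOP genes with a start sequence 12 of 13 hold CTTT and 5 of 13 TATAA, and the log2 fold changes of the 17 tested ran from -0.06 to 0.10.

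The snoRNAs carried by the hosts had counts only where they lay outside exons. The GENCODE release used here places 19 snoRNA genes within the hosts on the same strand, and none of them within GAS5. Nothing is therefore shown for snoRNAs of GAS5. Of these, 16 overlap an exon of some host transcript, and all 16 are listed at 0 in every library. The other 3 lie in introns and had counts: SNORD99 in SNHG12, with 62 counts in all, and SNORD12C and SNORD12B in ZFAS1, with 41 and 7. SNORD99 had 8, 8 and 13 counts with the control guide and 13, 12 and 8 with the HRAS guide, so no difference was detectable at this depth. Counts of such short RNAs also depend on how the library was made, which is not given in the sources used here. The 2 ZFAS1 snoRNAs are shown, 5′ to 3′, because they belong to the same snoRNA family. Capitals mark TGATGA and the last CTGA, the forms of boxes C and D.
SNORD12C: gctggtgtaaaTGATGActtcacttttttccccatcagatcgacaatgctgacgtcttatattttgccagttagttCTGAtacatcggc
SNORD12B: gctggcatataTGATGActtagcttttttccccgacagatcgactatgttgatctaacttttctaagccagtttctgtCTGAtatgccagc
They lie on GRCh38 at chr20:49278940-49279028 and chr20:49280319-49280409, both on the plus strand, and the sequences are from GENCODE release 29.

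The same pattern held over the annotation, which bears on how far the host counts are complete. Of 170 snoRNA genes with at least 95% of their bases in exons of another gene, 169 were at 0 in all libraries, against 431 of 728 with under 5%. Among protein-coding genes the shares at 0 were 54.5% of 411 and 14% of 14259. Of the exon bases of ZFAS1 46.9% are shared with other annotated genes, and of those of SNHG6 36.4%, including parts of ZNFX1 for the former and of MCMDC2 for the latter, both on the opposite strand. SNHG1 shares 15.3%, SNHG8 14.2% and SNHG12 9.54%, while NEAT1 shares 2.13% and GAS5 1.16%. How reads in such bases were assigned is not given in the sources used here, so the levels of ZFAS1 and SNHG6 are uncertain.

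GGACT, a common form of the m6A consensus, was counted in the longest transcript of each gene, since both groups carried an m6A eraser. MALAT1 holds 13 copies and NEAT1 19, which is 1.49 and 0.835 per kb, against a median of 0.919 over all genes tested and 0.913 over lncRNA genes. SNHG8 has the densest, with 3 copies in 672 bases (4.46 per kb). SNHG6 and ZFAS1 hold 0. These are letters in reference transcripts, and m6A itself was not measured.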

How the data were processed

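RNA was sequenced from 6 libraries, 3 per guide. The authors deposited raw counts by gene in 1 table of 60664 rows, of which 1 row without values was left out. HISAT2, StringTie, DESeq2 and the build hg38 appear in the submitters' processing notes, without versions or roles. For the counter, annotation release and strandedness, nothing is given in the sources used here. Columns were matched to libraries by guide and replicate number. Symbols came from a gene name table (60462 identifiers), coordinates from GENCODE release 29 on GRCh38, the assembly of hg38.

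Genes passing filterByExpr (19836) were TMM-scaled and tested with edgeR 4.0.16 (R 4.3.3, quasi-likelihood F-test, two-sided, group only, Benjamini-Hochberg, threshold 0.05). SEs were recovered from the F statistic; intervals are at 95%. The correction fits each library's deviation in log2 CPM (prior count 2) to splines of GC content and log10 length (5 and 4 degrees of freedom; robust fit on genes with a mean log2 CPM above 1) and enters edgeR as offsets (19489 genes). Alternatives were DESeq2 1.42.0, limma-voom (limma 3.58.1), other scaling and filters, the replicate number as a block, GC library sets as a covariate, and each library left out. Motifs and intervals were computed in Python 3.11.15.

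The genes and lists were chosen with earlier results of these data known. Named genes are the 10 members, HRAS, FTO and the called genes of each list. The 2 of highest mean CPM per list (4 for other snoRNA hosts) are named too. Exceptions are marked. Tested on simulated data of this comparison (19467 genes), edgeR found 4% of 1.25-fold, 56% of 1.5-fold and 90% of 2-fold changes, and called 9 genes that had none. No libraries agreed within sampling noise (chi-square per degree of freedom 3.19 to 43.6).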

Additional observations from a re-analysis of the deposited data

How the results depend on the processing

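The number of members called was 0 in all 17 fits, and the log2 fold changes of NEAT1 and MALAT1 and the host median moved by less than the spread between libraries in each. With each library left out in turn, NEAT1 ran from 0.21 to 0.33, MALAT1 from 0.04 to 0.15 and the host median from 0.09 to 0.15. Over all genes, the 2 calls of edgeR became 28 in DESeq2, 57 with no filter, 39 with the GC and length correction, 51 with the correction by the longest transcript and 81 with the library set as a covariate. They became 1 in limma-voom, with DESeq2 size factors and with a filter of 1 CPM in 3 libraries, and 1 to 24 with a library left out (24 without control replicate 2, 4 without control replicate 1). GAS5 moved by more than its spread only with the longest-transcript correction, to 0.10. With the replicate number as a block 1 gene was called; the numbers do not pair the libraries, since deviations of same-numbered libraries correlated at -0.544, -0.665 and -0.138. With the median transcript length in place of exon length, the levels in CPM per kb with the control guide were 3150 for MALAT1, 279 for NEAT1, 180 for GAS5, 114 for SNHG1, 69.0 for SNHG6, 68.2 for ZFAS1, 53.8 for SNHG15, 23.3 for SNHG8, 22.5 for SNHG12 and 5.87 for SNHG5, which places SNHG1 above SNHG6. With 3 libraries a guide, 4% of the smallest changes simulated were called, and these were larger than the ratio of 1.22 of NEAT1. The changed genes were drawn at random from genes of many levels, and no GC trend was simulated. The 4% is thus not a rate for NEAT1 itself.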
